A study of Mus musculus with 9 samples.

Results

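Voltage-gated sodium channels of the trigeminal ganglion (TG) were examined as 9 genes, of which 6 encode pore-forming α subunits (Scn9a, Scn10a, Scn11a, Scn8a, Scn1a and Scn3a) and 3 encode β subunits (Scn2b, Scn3b and Scn4b). They were chosen by name from the 21835 genes of the mRNA table, by a rule that uses no measured value, although earlier results of these data were known when they were chosen. The mice were 8-week-old wild-type (WT) C57BL/6 males that received 10 µl into the temporomandibular joint (TMJ) on one side. Saline was injected in the control group, and complete Freund's adjuvant (CFA, an oil emulsion with killed mycobacteria that inflames the joint) at 5 mg/ml in the other mice, whose TG was taken on day 3 (CFA3D) or day 6 (CFA6D). The labels place the saline libraries on day 3 as well, so no saline group of day 6 entered the comparisons. Each group held 3 libraries (numbered 1 to 3 in saline, 1 to 3 in CFA3D and 4 to 6 in CFA6D), and every library pooled TG tissue of 3 mice. The spread given as SD (n = 3) is therefore the spread between pools. Levels are given in FPKM, the fragments of a transcript divided by its length and by the size of the library. A gene sum adds up the transcripts of one gene.

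Each α subunit forms a complete sodium-selective pore whose opening produces the upstroke of the action potential, and the β subunits are single-pass proteins that set the gating, trafficking and adhesion of the channel. Sensory neurons of the trigeminal and dorsal root ganglia combine channels that tetrodotoxin (TTX) blocks at low concentration (encoded by Scn1a, Scn3a, Scn8a and Scn9a) with channels that resist the toxin (encoded by Scn10a and Scn11a). The resistant channels are found mainly in nociceptors, the neurons that signal tissue damage. A residue of the first pore loop is known to decide the sensitivity to TTX, and its codon is shown here because it differs between the genes shown of each class. The 33-base coding windows of 5 of the genes were read from GENCODE release M21 transcripts (GRCm38 positions), with the codon of this residue in capitals. The codon was TAC (tyrosine) in Scn3a, Scn8a and Scn9a and TCC (serine) in both resistant genes. The window of Scn1a is not reported here, so the windows do not cover the whole sensitive class.
Scn3a, chr2:65521798-65521830, minus strand: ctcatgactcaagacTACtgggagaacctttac
Scn8a, chr15:100971623-100971655, plus strand: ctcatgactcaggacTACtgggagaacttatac
Scn9a, chr2:66548986-66549018, minus strand: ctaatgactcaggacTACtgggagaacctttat
Scn10a, chr9:119666372-119666404, minus strand: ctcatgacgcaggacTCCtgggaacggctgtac
Scn11a, chr9:119805665-119805697, minus strand: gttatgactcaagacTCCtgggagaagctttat

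Between 30.03 and 42.3 M read pairs stood behind the libraries, as read from the smallest step of the FPKM values. The sensory neuron markers Isl1, Pou4f1, Prph and Avil were present in all 9 libraries, with a summed level of 383 to 567 FPKM. Saline replicate 3 stood apart from the other libraries on the second principal component (45.8, against -29.6 to 13.3). It held 10605.9 FPKM of the 4 pituitary hormone genes Gh, Prl, Pomc and Cga, against 8.67 to 1113 FPKM in the other libraries. It also had the lowest summed level of the 10 pan-neuronal genes (1562 FPKM, against 1743 to 2251). CFA6D replicate 6 stood apart on the first component (66.4, against -21.4 to 3.68). The summed level of 5 skeletal muscle genes was 4.09 to 136 FPKM in saline, 1.57 to 8.16 on CFA3D and 1.11 to 60.3 on CFA6D. In tissue of mixed cells, fewer cells of a type and less RNA per cell cannot be told apart.

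Scn10a encodes Nav1.8, the TTX-resistant channel that carries most of the action potential current in nociceptors. It was the highest of the 9 genes, with a mean of 78.8 FPKM. Its gene sum was 72.9, 76.0 and 53.3 FPKM in saline, 88.4, 78.9 and 95.1 on CFA3D, and 85.0, 86.4 and 72.9 on CFA6D. All 3 CFA3D libraries were above all saline libraries, whereas CFA6D overlapped saline, and saline replicate 3 was the lowest of the 9 libraries. Scn10a lies at chr9:119608456-119719322 on the minus strand. Its neighbour Scn11a (chr9:119753759-119825456, same strand, 34.4 kb away) encodes Nav1.9, which opens near the resting potential and amplifies small depolarisations. Scn11a measured 28.9, 25.8 and 20.9 FPKM in saline, 29.7, 30.1 and 31.3 on CFA3D, and 36.6, 35.0 and 27.1 on CFA6D. Again CFA3D lay wholly above saline, CFA6D overlapped it, and saline replicate 3 was lowest.

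Scn9a, which encodes Nav1.7, the threshold channel of nociceptors and sympathetic neurons, lies at chr2:66480080-66634962 on the minus strand. It measured 39.9, 29.8 and 26.0 FPKM in saline, 36.1, 33.1 and 33.0 on CFA3D, and 36.8, 32.0 and 30.3 on CFA6D. The 3 groups overlapped, and the highest and the lowest library were both saline. Scn8a (chr15:100869858-101045938, plus strand) encodes Nav1.6, the main channel of nodes of Ranvier and axon initial segments. Its gene sum was 31.8, 28.9 and 29.4 FPKM in saline, 30.9, 28.3 and 35.8 on CFA3D, and 41.6, 33.3 and 37.1 on CFA6D. The CFA6D libraries lay above all saline libraries and the CFA3D libraries overlapped them. Scn1a, which encodes Nav1.1 and is found in medium and large sensory neurons, lies at chr2:66270778-66440840 on the minus strand, 39.2 kb from Scn9a. It measured 19.6, 18.5 and 19.3 FPKM in saline, 18.3, 16.8 and 20.6 on CFA3D, and 17.1, 16.2 and 18.1 on CFA6D, so that all CFA6D libraries were below all saline libraries. Scn3a (chr2:65457118-65567627, minus strand) encodes Nav1.3, a channel of developing and injured sensory neurons. It was the lowest of the 9 genes, at 0.688, 1.00 and 1.59 FPKM in saline, 0.750, 0.609 and 1.00 on CFA3D, and 1.00, 0.964 and 0.728 on CFA6D. About 151 to 358 read pairs per library stood behind its sum, and the groups overlapped.

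Scn4b and Scn2b lie 8.32 kb apart on the plus strand of chromosome 9 (chr9:45138395-45154152 and chr9:45117782-45130070). They encode the β subunits that bind α subunits through a disulfide bond, and the β4 protein of Scn4b is known for its part in resurgent sodium current. Scn4b measured 55.0, 50.3 and 49.2 FPKM in saline, 58.5, 54.7 and 63.3 on CFA3D, and 73.2, 56.8 and 68.4 on CFA6D. Scn2b measured 7.92, 7.46 and 7.85 FPKM in saline, 7.92, 8.77 and 8.17 on CFA3D, and 9.52, 8.98 and 9.21 on CFA6D. For both genes, every CFA6D library was above every saline library, and CFA3D overlapped saline. Scn3b (chr9:40269217-40291618, plus strand) encodes a β subunit that binds without a covalent bond. It varied widely between pools, at 10.8, 6.56 and 4.80 FPKM in saline, 8.45, 10.8 and 5.57 on CFA3D, and 7.70, 4.196 and 8.36 on CFA6D, and its groups overlapped.

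**Figure D1:**
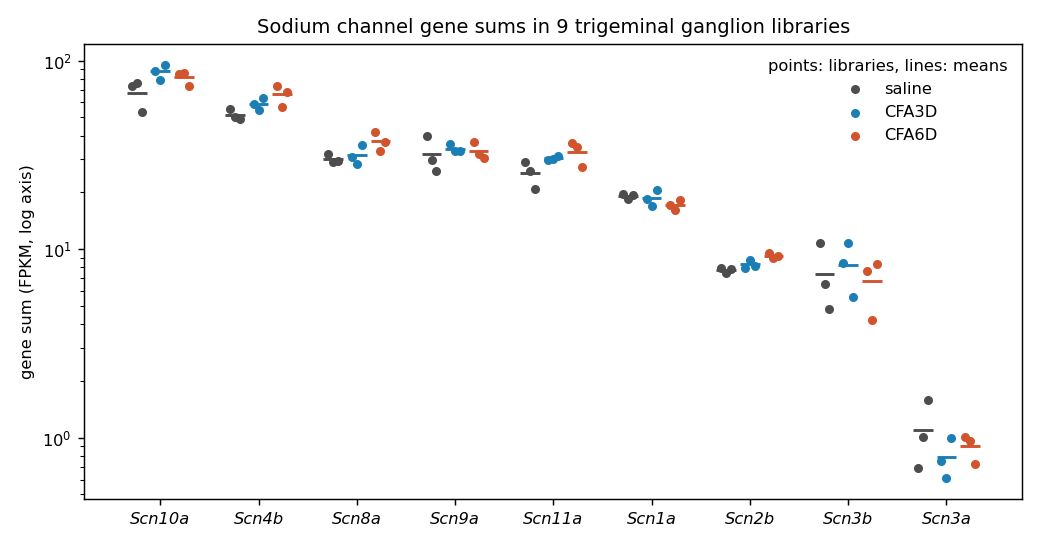
Gene sums (FPKM, log axis) of the 9 sodium channel genes, ordered by mean, with 1 point per library and a line at the mean of each group. Scn10a and Scn4b are at the top, with means of 78.8 and 58.8 FPKM, and Scn3a is at the bottom with 0.926 FPKM; groups of a gene differ far less than the genes do.

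On this scale, which is per length and so allows levels of different genes to be compared, the order of the means was Scn10a, Scn4b, Scn8a, Scn9a, Scn11a, Scn1a, Scn2b, Scn3b and Scn3a. Scn10a was above Scn4b in 9 of 9 libraries, although the ranges of the 2 genes over all libraries overlapped. The Scn10a sum includes the noncoding Scn10a-203 (mean 7.52 FPKM) and the retained-intron Scn10a-205 (2.37 FPKM). Its leading coding transcript Scn10a-202 alone was below Scn4b in saline replicate 3 (42.7 against 49.2 FPKM). The same held in CFA6D replicates 4 (71.5 against 73.2) and 6 (58.7 against 68.4). Scn8a was above Scn9a in 5 of 9 libraries and Scn2b above Scn3b in 6 of 9, so these neighbours in the order did not differ beyond their spread. Scn9a was above Scn11a in 8 of 9. The Scn9a sum includes the retained-intron transcripts Scn9a-205 (mean 3.55 FPKM) and Scn9a-204 (0.916 FPKM), whereas both Scn11a transcripts are coding. In CFA6D replicate 4 the sums were 36.8 and 36.6 FPKM, with Scn9a-205 at 4.05 FPKM. The order of these 2 genes therefore depends on whether retained-intron transcripts are counted. The remaining neighbours (Scn4b and Scn8a, Scn11a and Scn1a, Scn1a and Scn2b, Scn3b and Scn3a) had ranges that did not overlap. The 6 α genes together measured 174.8 ± 22.1 FPKM in saline, 202.9 ± 14.5 on CFA3D and 202.8 ± 16.01 on CFA6D (SD, n = 3). The TTX-resistant genes Scn10a and Scn11a made up 52.8% ± 3.64 of this sum in saline, 58.1% ± 0.248 on CFA3D and 56.3% ± 2.98 on CFA6D. Their share was 52.5%, 56.6% and 49.3% in saline replicates 1, 2 and 3, against 57.8% to 58.3% in the CFA3D libraries, which did not overlap with saline. On CFA6D the share was 53.7% to 59.6% and overlapped saline. With 3 libraries against 3, the smallest p an exact permutation test of such a share can give is 0.1, so none was called.

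The first comparison asked how the sodium channel genes differed on day 3 of the joint inflammation from saline. Gene sums were compared as log2(FPKM + 0.1) with limma in one fit of the 16110 gene sums whose mean reached 0.1 FPKM, and all 9 members passed this filter. A gene sum was called where its p before adjustment was under 0.05. By this rule 1 of the 9 members was higher on CFA3D and 0 were lower, while 4.45% of all gene sums were called (3.64% higher and 0.807% lower). The member that rose was Scn10a, by 0.39 ± 0.14 on the log2 scale (SE, 95% interval 0.07 to 0.71), a 1.31-fold difference with an adjusted p = 0.997 (limma, Benjamini-Hochberg over all gene sums). The call was lost without saline replicate 3, where the log2 difference was 0.23, and without CFA3D replicate 1 (0.38) or CFA3D replicate 3 (0.33). Scn11a differed by 0.28 ± 0.14 (95% interval -0.04 to 0.59) and was not called over all libraries. Without saline replicate 1, it was called (0.38), as was Scn9a (0.29), whose difference over all libraries was 0.12 ± 0.15 (95% interval -0.21 to 0.44). The intervals were -0.17 to 0.32 for Scn8a, -0.25 to 0.15 for Scn1a, -0.09 to 0.28 for Scn2b and -0.05 to 0.43 for Scn4b. They were wider for the low or variable genes Scn3a (-1.05 to 0.29) and Scn3b (-0.61 to 0.99). The median log2 difference of the 9 genes was 0.12, and that of all gene sums was 0.05.

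The second comparison asked the same for day 6, against the same saline libraries, so both sets of differences share their controls. On CFA6D 4 of the 9 members were called higher and 0 lower, while 11.1% of all gene sums were called (8.21% higher and 2.85% lower). Scn4b rose by 0.35 ± 0.11 on the log2 scale (95% interval 0.12 to 0.59), a 1.28-fold difference with an adjusted p = 0.250 (limma). Scn11a rose by 0.38 ± 0.14 (interval 0.07 to 0.70), Scn8a by 0.31 ± 0.11 (0.06 to 0.55) and Scn2b by 0.25 ± 0.08 (0.07 to 0.43), with adjusted p of 0.347, 0.333 and 0.288 (limma). Scn8a is among the genes that the study itself named from these libraries, so its sum is no independent evidence of a direction. The paper reports Scn8a as lower on both days, whereas the gene sum here was higher on CFA6D. Which transcript the paper's value refers to is not stated there. The low transcript Scn8a-201 was called lower on both days. Of the 16110 gene sums, 0 reached an adjusted p under 0.05 on either day (limma), while 717 were called before adjustment on day 3 and 1782 on day 6. Scn11a lost its call without saline replicate 3 (0.25), CFA6D replicate 4 (0.30) or CFA6D replicate 5 (0.33). Scn8a lost it without saline replicate 2 (0.28) or CFA6D replicate 4 (0.23). Scn4b and Scn2b kept their calls whichever library was left out (0.28 to 0.46 and 0.23 to 0.27). Scn10a differed by 0.29 (interval -0.03 to 0.60) and was not called, but it was called without saline replicate 2 (0.38) or CFA6D replicate 6 (0.36). The differences of Scn1a (-0.16, interval -0.36 to 0.04), Scn9a (0.07, interval -0.26 to 0.40), Scn3a (-0.20) and Scn3b (-0.11) did not pass. The median over the 9 genes was 0.25, against 0.03 over all gene sums.

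**Figure D2:**
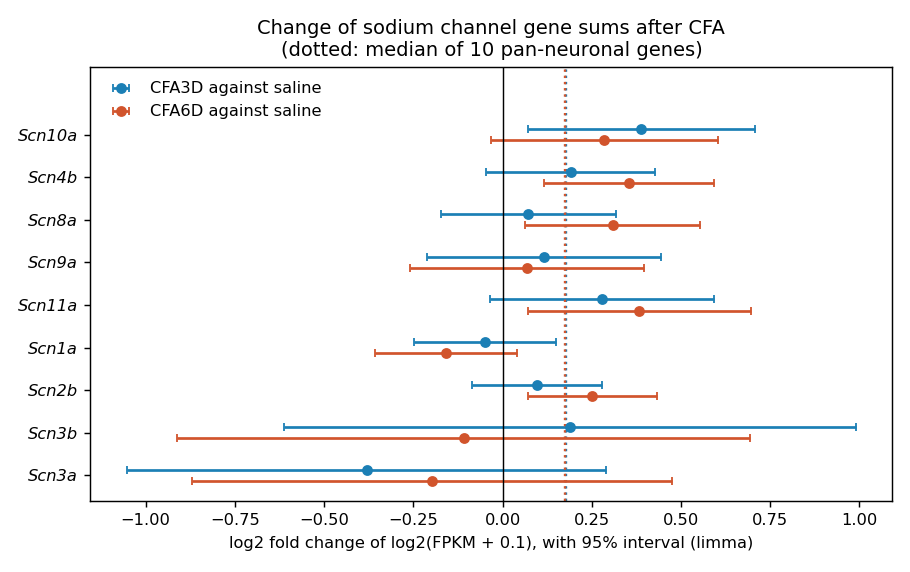
Log2 differences of log2(FPKM + 0.1) between CFA3D or CFA6D and saline for the 9 genes, with 95% intervals from limma; the dotted lines mark the medians of 10 pan-neuronal genes (0.18 on both days). The intervals of Scn10a on CFA3D and of Scn4b, Scn8a, Scn11a and Scn2b on CFA6D lie above 0, and only Scn1a and Scn3a are below 0 on both days.

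General neuronal genes moved in the same direction as the sodium channel genes. The mean log2 level of the 10 pan-neuronal genes was 6.57 ± 0.09 in saline, 6.73 ± 0.12 on CFA3D and 6.80 ± 0.10 on CFA6D (SD, n = 3). Of these 10 genes, 2 were called higher on CFA3D (Syt1 and Elavl4) and 3 on CFA6D (Rbfox3, Uchl1 and Syt1), with a median difference of 0.18 on each day. Their summed level was 1562 to 1978 FPKM in saline, 1855 to 2168 on CFA3D and 1916 to 2251 on CFA6D. Among the 4 non-peptidergic nociceptor markers, 1 was called higher on CFA3D and 2 on CFA6D, beside 3.64% and 8.21% of all gene sums. Of the 4 peptidergic nociceptor markers, 1 was called higher on each day. Of the 4 sensory neuron identity genes, 1 was called higher on CFA3D and 2 on CFA6D, where 3 were positive. Of the 7 markers of myelinated sensory neurons, 6 had positive differences on CFA6D (list median 0.19) and 2 were called higher. Only 1 of them, the calcium-binding protein gene Pvalb, was called lower (-0.45). Among other cell types, some markers went the opposite way on CFA6D. Of the 5 fibroblast genes, 2 had positive differences and 2 were called lower, the matrix proteoglycan genes Dcn (-0.50) and Lum (-0.49). The 4 satellite glia genes all had negative log2 differences on CFA6D (median -0.20), with 0 called before adjustment (limma). The part of these genes in the sodium channel values was not tested. When each library was centred on the pan-neuronal genes, the median of all gene sums moved to -0.11 on CFA3D and -0.21 on CFA6D. On that scale 0 of the 9 members were higher and 1 was lower on each day. The lower member was Scn1a, at -0.21 on CFA3D and -0.39 on CFA6D. The share of all gene sums called on the centred scale was not counted, so these member counts have no background beside them. The members called without centring were no longer called, with differences of 0.23 for Scn10a on CFA3D, and 0.12 for Scn4b, 0.15 for Scn11a, 0.08 for Scn8a and 0.02 for Scn2b on CFA6D.

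Taking both CFA days against saline, 4 of the 9 members were called higher, and 0 lower, beside 8.19% of all gene sums (6.77% higher and 1.42% lower). They were Scn10a (0.34), Scn11a (0.33), Scn4b (0.27) and Scn2b (0.17), with adjusted p of 0.457 or more (limma). Without saline replicate 3, 0 of the 9 were called in this comparison, and without saline replicate 2 there were 2. Between the 2 CFA days, 0 of the 9 members were called before adjustment (limma), beside 7.41% of all gene sums (3.07% higher and 4.34% lower on CFA6D). The largest of these differences relative to its error was that of Scn8a, 0.24 ± 0.11 higher on CFA6D (95% interval -0.01 to 0.48, adjusted p = 0.676, limma). It was called when CFA3D replicate 3 (0.33) or CFA6D replicate 5 (0.32) was left out, and Scn4b was called without CFA6D replicate 5 (0.27, against 0.16 over all libraries).

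**Figure D3:**
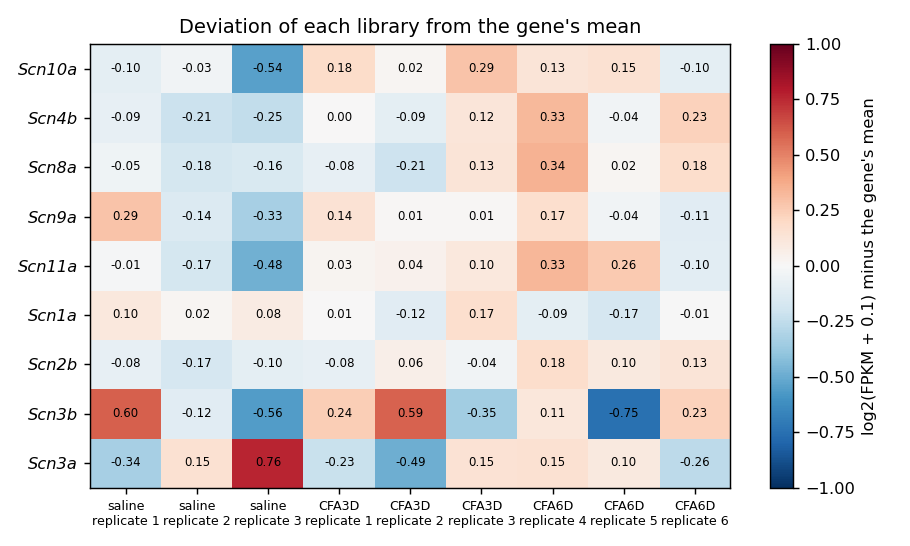
Each library's log2(FPKM + 0.1) minus the mean of the gene over the 9 libraries, for the 9 genes. Saline replicate 3 has the lowest value of Scn10a (-0.54), Scn11a (-0.48) and Scn9a (-0.33) and the highest of Scn3a (0.76), while Scn1a and Scn2b stay within 0.18 of their means.

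The members also varied together over the 9 libraries, which share treatment groups and neuronal content, so the following values are descriptions. Scn4b and Scn8a had the highest Pearson r among the 8 genes with a mean of at least 1 FPKM (0.93, n = 9 libraries), followed by Scn10a and Scn11a (0.84). Scn1a was negatively related to Scn2b (-0.64). Among 13185 gene sums, those most like Scn10a were Mettl7a3, Kcnv1, Tmem196, Fam89a and Rabgef1 (r of 0.93 to 0.96, n = 9 libraries), of which Kcnv1 encodes a silent potassium channel subunit. Those most like Scn8a were Atp2b3, a plasma membrane calcium pump, Gnaz, Sorcs3, Dnm1, the dynamin of synaptic vesicle recycling, and Wfs1 (r of 0.96 to 0.99).

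The transcript table lists 58 transcripts of the 9 genes, 43 of them protein-coding and 10 with a retained intron. A mean of at least 0.1 FPKM was reached by 44 and a mean of 1 FPKM by 20. Scn4b and Scn2b were each carried by a single transcript (Scn4b-201 and Scn2b-202), and Scn11a-201 made up 99.1% of Scn11a. Scn10a-202 made up 83.5% of Scn10a and Scn1a-201 81.6% of Scn1a. The other genes were divided among isoforms, with leading transcripts of 54.3% for Scn8a (Scn8a-203), 51.4% for Scn3a (Scn3a-202), 36.7% for Scn3b (Scn3b-203) and 35.8% for Scn9a (Scn9a-203). FPKM of isoforms that share most of their exons are estimates that trade reads with each other, so a difference of a single isoform can come with an opposite one in another.

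Several of these isoforms differ by short alternative exon forms. Scn9a has a pair of mutually exclusive coding exons, known as the neonatal (upstream) and adult (downstream) copies. Scn9a, Scn1a and Scn8a each have a coding exon in the cytoplasmic loop between the first and second domains with an alternative end. Sequences are shown for Scn8a and Scn10a because isoform shares below turn on them. The longer loop exon of Scn8a adds 30 bases (in capitals, after the last 12 bases of the shorter form). In Scn10a a coding exon can start 3 bases earlier (in capitals). Both coordinates are GRCm38.
Scn8a longer loop exon, chr15:100984034-100984075, plus strand: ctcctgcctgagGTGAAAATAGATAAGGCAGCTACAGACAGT
Scn10a exon with 3 extra bases, chr9:119633855-119633881, minus strand: CAGgagctgctgcagcaagtccaaaag

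Scn9a-202 carries the longer loop exon, the upstream copy of the paired exon and a last exon of over 4000 bases. It measured 6.98, 7.72 and 8.65 FPKM in saline, 8.35, 10.8 and 17.5 on CFA3D, and 13.3, 16.8 and 14.7 on CFA6D. All CFA6D libraries were above all saline libraries, while CFA3D ranged from within saline to the highest value of all. The log2 difference was 0.93 ± 0.25 on CFA6D (adjusted p = 0.505, limma) and 0.58 ± 0.25 on CFA3D (adjusted p = 0.989, limma). Before adjustment both had p under 0.05, but both are under the log2 difference of 1 in size that a transcript also needed to be called. On CFA6D the value stayed between 0.84 and 1.01 whichever library was left out, and it was 0.70 after centring on the pan-neuronal genes. On CFA3D it was 0.29 without CFA3D replicate 3. Scn9a-203, with the shorter loop exon and a shorter last exon, measured 21.6, 7.995 and 11.4 FPKM in saline, 20.3, 13.5 and 4.37 on CFA3D, and 14.3, 4.55 and 8.45 on CFA6D. Scn9a-207, which carries the downstream copy, measured 5.11, 9.27 and 2.01 FPKM in saline, 2.78, 3.07 and 4.57 on CFA3D, and 3.34, 3.997 and 2.40 on CFA6D. The groups of both transcripts overlapped. The retained-intron transcript Scn9a-205 had a mean of 3.55 FPKM.

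**Figure D4:**
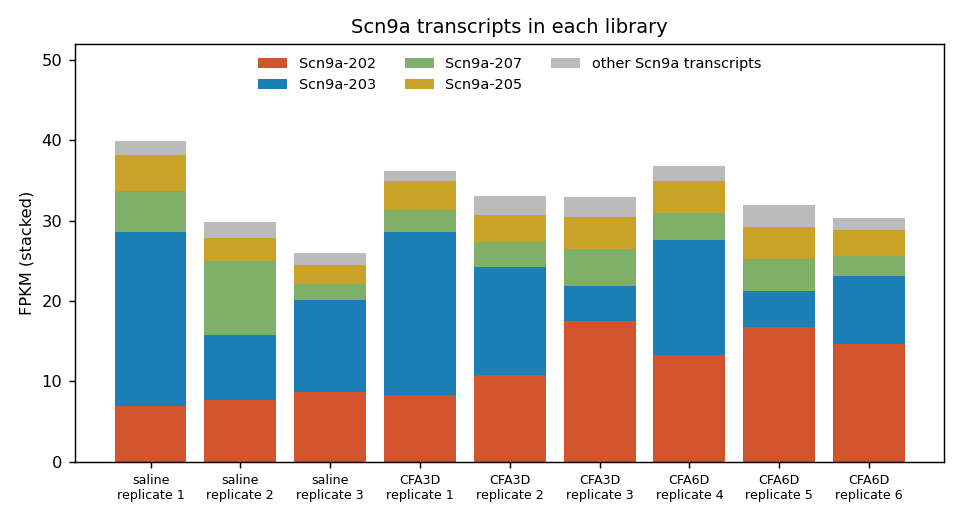
FPKM of Scn9a transcripts stacked in each of the 9 libraries, so that the height of a bar is the gene sum. Scn9a-202 takes 6.98 to 8.65 FPKM in saline and 13.3 to 16.8 FPKM on CFA6D, while the bar heights of the groups overlap.

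Among full-length coding transcripts of Scn9a, the longer loop exon took 20.5%, 30.6% and 38.2% in saline, 26.4%, 37.3% and 63.2% on CFA3D, and 41.8%, 62.1% and 57.0% on CFA6D. The CFA6D libraries were all above the saline libraries and CFA3D overlapped both. The group means were 29.8% ± 8.89, 42.3% ± 18.9 and 53.6% ± 10.6 (SD, n = 3), with 0.1 as the smallest p that an exact permutation test allows here. The downstream copy of the paired exon took 19.8% ± 14.1 in saline, 11.9% ± 4.01 on CFA3D and 11.5% ± 2.91 on CFA6D, and the groups overlapped. Transcripts with a last exon of over 4000 bases took 31.9% ± 9.14, 46.1% ± 20.3 and 56.9% ± 11.8, since Scn9a-202 holds most of the longer loop exon and of the longer last exon alike. The FPKM values do not show which of these features the reads covered.

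The longer loop exon of Scn1a took 10.5% ± 1.14 in saline, 10.6% ± 0.295 on CFA3D and 15.3% ± 8.54 on CFA6D, where CFA6D replicate 4 alone reached 24.8%. In Scn8a it took 20.9% in saline replicate 1 and 1.20% to 1.92% in the other 8 libraries. The same library listed Scn8a-205 at 0.227 FPKM, against 6.17 to 11.3 FPKM elsewhere, and Scn8a-204 at 5.48 FPKM, against 0.275 to 0.571. The leading transcript Scn8a-203 measured 13.3 to 20.5 FPKM in saline, 13.9 to 23.5 on CFA3D and 19.1 to 21.9 on CFA6D. In Scn10a, the exon with 3 extra bases took 4.63% ± 0.309 of the coding transcripts in saline, 4.46% ± 0.574 on CFA3D and 4.55% ± 0.173 on CFA6D.

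By this rule 2 of the 44 tested member transcripts were called on CFA3D, 0 higher and 2 lower, beside 2.19% of the 66562 transcripts tested (1.2% higher and 0.989% lower). On CFA6D 0 were higher and 2 lower, beside 2.57% of all transcripts (1.47% higher and 1.1% lower). Adjusted p was under 0.05 for 0 of the 44 (limma), and for 17 of all transcripts on CFA3D and 13 on CFA6D. Before adjustment 7 of the 44 on day 3 and 8 on day 6 were under 0.05. The share of all transcripts under that threshold alone was not counted. Scn8a-201 was called on both days, by -1.82 on CFA3D and -1.74 on CFA6D (adjusted p of 0.989 and 0.650, limma), and lost both calls without saline replicate 2 (-1.38 and -1.31) or saline replicate 3 (-1.54 and -1.46). It was low throughout, at 0.0436, 0.610 and 0.471 FPKM in saline, 0.0327, 0 and 0 on CFA3D, and 0.0553, 0 and 0 on CFA6D. Its fitted difference depends on the pseudocount and is no bound. Scn3b-204, a retained-intron transcript, fell by 1.03 on CFA3D (adjusted p = 0.989, limma) and measured 3.34, 2.51 and 1.88 FPKM in saline, 1.16, 1.298 and 1.08 on CFA3D, and 1.12, 2.08 and 1.02 on CFA6D. Every CFA3D library was below every saline library, and no left-out library raised the p before adjustment above 0.05, although the difference was under 1 in size without saline replicate 1 (-0.83) or CFA3D replicate 3 (-0.98). The coding transcripts Scn3b-202 (mean 2.03 FPKM) and Scn3b-203 (mean 2.74 FPKM) did not pass. Scn11a-202, which held 0.929% of Scn11a, fell by 1.64 on CFA6D (adjusted p = 0.653, limma), from 0.492, 0.649 and 0.281 FPKM to 0.346, 0.0151 and 0.00833. It lost its call without saline replicate 2 (-1.42), CFA6D replicate 5 (-1.33) or CFA6D replicate 6 (-1.29). In the comparison of both days with saline, 2 were called, both lower (Scn8a-201 at -1.78 and Scn11a-202 at -1.22), beside 1.86% of all transcripts (1.08% higher and 0.778% lower). Between the CFA days 1 was called, the short Scn8a-214, which was higher on CFA6D by 1.01, beside 2.23% of all transcripts (1.17% higher and 1.05% lower).

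Proteins that bind, anchor or regulate sodium channels were described from a list of 19 genes. On CFA3D 1 of the 19 was called higher, on CFA6D 4 were, and 0 were lower on either day, beside 3.64% of all gene sums called higher on CFA3D and 8.21% on CFA6D. The median difference of the list was 0.08 on CFA3D and 0.17 on CFA6D. The largest difference on CFA6D was that of Sgk1, a kinase known to limit channel ubiquitination by Nedd4-2. Sgk1 measured 33.0, 27.0 and 17.2 FPKM in saline, 34.4, 25.8 and 17.4 on CFA3D, and 49.6, 67.2 and 58.9 on CFA6D. All CFA6D libraries were above all others. The difference from saline was 1.22 ± 0.28 on the log2 scale (adjusted p = 0.156, limma), 0.96 without saline replicate 3 and 0.99 after centring on the pan-neuronal genes, and it was called in each case. Fgf13, a fibroblast growth factor homologous factor that binds the tail of α subunits, measured 26.5, 27.8 and 36.4 FPKM in saline, 40.6, 28.7 and 35.7 on CFA3D, and 63.7, 51.99 and 44.7 on CFA6D. It rose by 0.82 ± 0.17 on CFA6D (adjusted p = 0.139, limma), with no overlap with saline or CFA3D, and by 0.69 to 0.96 when any library was left out. Map1b, a microtubule protein that binds Nav1.6, rose by 0.43 and Dpysl2 (which encodes CRMP2, a regulator of Nav1.7 trafficking) by 0.39, with adjusted p of 0.262 and 0.156 (limma). After centring on the pan-neuronal genes Map1b stood at 0.20 and was still called, and Dpysl2 stood at 0.16 and was not. Dpysl2 was also the gene called on CFA3D (0.20, adjusted p = 0.997, limma), and it lost that call without saline replicate 1 or 2 or CFA3D replicate 2 or 3 (0.16 to 0.21). Between the 2 CFA days, Sgk1 (1.22), Fgf13 (0.61) and Map1b (0.35) were higher on CFA6D, with adjusted p of 0.510 to 0.642 (limma). Map1b lost this call without CFA3D replicate 1 or 2 or CFA6D replicate 4 or 6 (0.28 to 0.36). Of the abundant partners that were not called, Calm3 had a mean of 370.9 FPKM and differed by 0.18 on CFA6D, Calm2 (309.4 FPKM) by -0.02 and S100a10 (248.0 FPKM), which brings Nav1.8 to the membrane, by -0.10.

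Of the other genes of the family, 4 are described. Scn7a, which encodes the sodium-sensing channel Nax found in glia and sensory neurons, had a mean of 55.7 FPKM and differed by 0.00 on CFA3D and -0.03 on CFA6D (adjusted p of 0.999 and 0.946, limma). The leak channel gene Nalcn (6.53 FPKM), the brain channel gene Scn2a (4.404 FPKM) and the muscle channel gene Scn4a (0.822 FPKM) had lower mean levels than Scn7a. They were not called against saline on either day, with log2 differences of -0.10 and -0.18 for Nalcn, 0.10 and 0.24 for Scn2a, and -0.33 and -0.19 for Scn4a on CFA3D and CFA6D.

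The lncRNA table holds transcripts of 4 genes that overlap a member on the opposite strand. The methods describe strand-specific libraries, but how the authors' counting used strand was not given in the sources used here. Reads of these genes and of the member therefore cannot be told apart with certainty. Gm13629, which overlaps the 3′ part of Scn9a (chr2:66440880-66546026, plus strand), was the highest. Its transcript ENSMUST00000141149 measured 1.77, 2.09 and 3.71 FPKM in saline, 2.76, 2.62 and 2.90 on CFA3D, and 2.16, 2.17 and 2.41 on CFA6D, with overlapping groups and a difference of 0.19 on CFA3D and -0.09 on CFA6D. Gm10684 overlaps Scn2b (chr9:45107176-45135606, minus strand). Its transcript ENSMUST00000217151 measured 0.766, 0.705 and 0.537 FPKM in saline, 0.0798, 0.214 and 0.424 on CFA3D, and 0.366, 0.661 and 0.552 on CFA6D. It was lower on CFA3D with a log2 difference of -1.302 (adjusted p = 0.998, limma), while Scn2b itself differed by 0.10. The other Gm10684 transcript, ENSMUST00000098827 (mean 0.376 FPKM), differed in the opposite direction on CFA3D (0.45) and was not called. Gm13630, opposite Scn1a, and Gm13595, opposite Scn3a, had means of 0.142 and 0.0585 FPKM.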

How the data were processed

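RNA of the trigeminal ganglion was measured in 9 libraries. FPKM values were deposited by the authors for each transcript, with mRNA, lncRNA and other noncoding RNA in tables of their own. The mRNA and lncRNA tables were used, in which 0 per-sample columns were left out; the table of other noncoding RNA was not used. The methods describe rRNA depletion, strand-specific libraries, trimming with Trimmomatic, mapping to GRCm38 and expression in CLC Genomics Workbench. They do not mention FPKM. The submitters' processing notes name Bowtie 0.12.2 and the build mm8. Neither source states whether counting used strand, and the build behind the deposited values cannot be told apart from these statements. Transcripts were joined by ID to the mouse GENCODE release M21 (GRCm38), and gene sums add all transcripts of a gene ID. Of 102122 mRNA transcripts 101539 matched. Read pairs per library (30.03 to 42.3 M) were estimated from the smallest repeated value of FPKM times transcript length.

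Comparisons used limma 3.58.1 (R 4.3.3) on log2(FPKM + 0.1), in a fit of the 3 groups without covariates, with empirical Bayes moderation and a trend in the mean. Everything with a mean of at least 0.1 FPKM was fitted and adjusted together (Benjamini-Hochberg), and tests were two-sided. Folds on this scale understate changes of low genes. A gene sum was called at a p under 0.05 before adjustment, the study's cutoff, and a transcript also needed a log2 difference of at least 1 in size. The fit was tested on simulated data. Other steps ran in Python 3.11.15 with pandas 2.3.3, numpy 2.4.6 and matplotlib 3.10.9. The sequences were read from the GENCODE release M21 transcripts, with GRCm38 positions.

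The named genes were the 9 members, the other genes of the family, partner genes that were called and the 4 most abundant others, member transcripts with a mean of 1 FPKM or a call, the 5 genes most like Scn10a and Scn8a, and lncRNA genes overlapping a member. Members, lists and rules were chosen with earlier results of these data known. Alternatives were pseudocounts of 0.01 and 1, a mean of at least 1 FPKM, no filter, quantile normalization, centring on the 10 pan-neuronal genes, only the groups compared, the replicate number as a block, the leading transcript in place of the gene sum, other call rules and leaving out each library. Those for single transcripts, partners and the other genes of the family were added after the values had been seen. Some genes and sequences that these rules would name are not reported here.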

Additional observations from a re-analysis of the deposited data

Results flagged for a closer look

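The short Scn8a transcript Scn8a-214 differed between the 2 CFA days in the test of that difference itself. It measured 1.13, 0.922 and 1.04 FPKM in saline, 0.583, 0.688 and 0.244 on CFA3D, and 1.497, 0.679 and 1.12 on CFA6D. The log2 difference of CFA6D from CFA3D was 1.01 ± 0.37 (SE, adjusted p = 0.918, limma), against -0.99 for CFA3D and 0.03 for CFA6D from saline. The CFA days overlapped, since CFA6D replicate 5 was below CFA3D replicate 2. The difference was no longer under the p threshold before adjustment without CFA3D replicate 3 (0.65), CFA6D replicate 4 (0.78) or CFA6D replicate 6 (0.97), and when only those groups were fitted (1.01).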

How the results depend on the processing

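With 3 pools a group, no gene sum of a sodium channel passed adjustment, and values near or under 1 FPKM (Scn3a and several isoforms) rest on few reads. Of 536 alternative values of the members, 454 kept their direction and side of the threshold, 30 lost a call, 18 gained one and 34 turned direction. The cause was not tested.

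Members called higher or lower, counted over gene sums, were 1 on CFA3D, 4 on CFA6D, 4 over both days and 0 between the CFA days. Requiring a log2 difference of 1 or an adjusted p under 0.05 gave 0 in each comparison. Centring on the pan-neuronal genes gave 1 in each. Quantile normalization gave 1 over both days and 2 between the CFA days, where no filter gave 1. Leaving out 1 library gave 0 to 3 on CFA3D, 2 to 5 on CFA6D, 0 to 5 over both days and 0 to 2 between the days. Member transcripts called were 2, 2, 2 and 1 in the same order. The p threshold alone gave 7, 8 and 10 in the first 3 comparisons. An adjusted p or a pseudocount of 1 gave 0 throughout. A mean of at least 1 FPKM gave 1 on CFA3D and 0 otherwise. No filter gave 4 on CFA3D and 4 on CFA6D. Centring gave 5 on CFA3D, 5 over both days and 0 between the days, where fitting only those groups gave 0. Leaving out 1 library gave 2 to 5 on CFA3D, 1 to 6 on CFA6D, 1 to 6 over both days and 1 between the days. Except for the adjusted p, the share of all gene sums or transcripts called was not counted for these alternatives.

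Direction turned on CFA3D with quantile normalization for Scn8a (-0.013), with centring for Scn9a (-0.046), Scn8a (-0.090) and Scn2b (-0.066), and with the leading transcript for Scn9a (-0.24). On CFA6D it turned with quantile normalization (-0.0067) and centring (-0.16) for Scn9a, and with the leading transcript for Scn9a (-0.61), Scn3a (0.65) and Scn3b (0.39). Over both days it turned with centring for Scn9a (-0.11), Scn8a (-0.0068), Scn2b (-0.024) and Scn3b (-0.16), and with the leading transcript for Scn9a (-0.42) and Scn3a (0.15). Leaving out 1 library also turned some values. On CFA3D the range was -0.020 to 0.29 for Scn9a, -0.019 to 0.15 for Scn8a, -0.12 to 0.020 for Scn1a and -0.078 to 0.50 for Scn3b. On CFA6D it was -0.067 to 0.24 for Scn9a, -0.46 to 0.088 for Scn3a and -0.38 to 0.20 for Scn3b. Over both days it was -0.044 to 0.27 for Scn9a and -0.23 to 0.35 for Scn3b, and between the days -0.13 to 0.012 for Scn9a and -0.55 to 0.0084 for Scn3b.

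Saline and CFA3D share replicate numbers. Deviations of same-numbered libraries from their group means correlated across 13185 genes at 0.06, -0.13 and 0.04. Libraries of different numbers correlated at -0.15 to 0.11. These values gave no sign that the numbers pair the libraries, but with 3 libraries a group they cannot exclude it. With the replicate number as a block, 1 member was called on CFA3D (Scn10a, 0.39), and 0 of the 19 partner genes, in place of 1.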
